A study of Mus musculus with 6 samples.

Results

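The 81 genes described here carry the symbols of the nuclear-encoded subunits of the respiratory chain and of ATP synthase, and all but Atp5s and Atp5sl encode such subunits or proteins bound to them, out of 29493 genes in the deposited count table. They were chosen by gene symbol, with earlier results of these data known. The rule took every name beginning with Nduf and a subunit letter and number, the 4 Sdh genes, every Uqcr gene, Cox4 to Cox8 and every Atp5 gene. A subunit with any other symbol was not counted. The 7 names marked as pseudogenes were left out. The symbols fall into complex I with 38 genes, complex II with 4, complex III with 8, complex IV with 14 and complex V with 17. The cells were HT22, an immortalised neuronal line from mouse hippocampus, in 2 groups of 3 libraries. In the Dox group, doxycycline at 1 µg/ml was given for 8 h to switch on V5-tagged KLF13, a Krüppel-like transcription factor. The Vehicle group was the same line given vehicle. Both groups therefore carry the tet repressor and the inducible V5-Klf13 transgene, as the stably transfected genotype HT22-TR/TO-V5Klf13-1, and the labels do not say whether it is a single clone. Libraries of cells given doxycycline without the transgene were not analysed here, so an action of the drug itself and of KLF13 cannot be told apart. The labels do not say whether the 3 libraries of a group came from separate cultures, and p-values measure the spread between these libraries, which may be technical.

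The respiratory chain passes electrons from NADH through complex I, or from succinate through complex II, to ubiquinone, on through complex III and cytochrome c to complex IV, and finally to oxygen. Complexes I, III and IV pump protons across the inner mitochondrial membrane, and complex V, the ATP synthase, makes ATP as the protons return. Every subunit of complex II and most subunits of the other complexes are made from nuclear genes and imported, while the remaining ones are made inside mitochondria from mitochondrial DNA. Neurons depend heavily on this pathway for ATP.

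Libraries held 38566798 to 52930384 counts each. Klf13 had 205, 188 and 184 CPM in the Dox libraries, against 37.0, 36.1 and 39.1 CPM in the Vehicle libraries, and rose 5.13-fold (a log2 fold change of 2.36 ± 0.054 (SE), adjusted p = 1.5e-06, edgeR quasi-likelihood test with Benjamini-Hochberg adjustment over all genes), though the counts do not separate the transgene from the cell's own gene. Of 6 neuron markers in the table, 4 were tested and 3 fell, and their summed level was 25.2 to 26.7 CPM (counts per 1000000) with Dox and 84.8 to 85.6 CPM with Vehicle. The defining neuronal genes Map2 and Gap43 were near 0 in both groups, and Tubb3, neuronal tubulin, had 15.1, 14.3 and 14.7 CPM in the Dox libraries, against 60.9, 60.8 and 60.5 CPM in the Vehicle libraries. Of 5 fibroblast markers, 4 were tested and 3 fell, with summed levels of 5918 to 6193 CPM with Dox and 7517 to 7985 CPM with Vehicle, almost all of it collagen I. The 5 microglial markers summed to 19.9 to 20.8 CPM with Dox and 29.9 to 32.1 CPM with Vehicle, almost all of it Tmem119. The other microglial markers were near 0 in both groups. The 4 astrocyte markers summed to 0.344 to 0.408 CPM with Dox and 0.231 to 0.312 CPM with Vehicle, and the 4 oligodendrocyte markers to 1.03 to 1.27 CPM with Dox and 1.72 to 2.25 CPM with Vehicle. The part of these marker changes in the results below was not tested, and in bulk libraries fewer cells of a type and less RNA per cell cannot be told apart.

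Most nuclear-encoded respiratory subunits were slightly higher after 8 h of Dox. Of the 81 genes, 79 had enough counts to be tested, and 54 rose, 2 fell and 23 did not pass an adjusted p of 0.05. Without Atp5s and Atp5sl, which are no subunits, 53 of 77 rose and 1 fell. Across all 18067 genes tested, 25.9% rose and 28.8% fell, 54.7% in either direction, and among the 4796 genes averaging at least 50 CPM, 35.9% rose and 36.7% fell, 72.6% in either direction. The median log2 fold change of the members was 0.21, a 1.16-fold difference, with a quartile range of 0.12 to 0.30, against a median of 0.02 for all genes tested. Under upper-quartile scaling, which moved the median of all genes to 0.11, 68 members were higher and 1 lower with a median of 0.30, and all genes split into 6246 higher and 4457 lower in place of 4687 and 5203. Under it the log2 fold change was 0.17 for Atp5b, 0.19 for Sdha, 0.25 for Sdhd, 0.27 for Uqcrc2 and 0.23 for Cox8a. The changes were small: 29 members had a fold above 1.2 and none of the 79 passed 1.5-fold. A difference of over 2-fold was seen in 10.3% of all genes tested and 4.09% of those averaging at least 50 CPM. The only members not tested were Ndufa4l2, an isoform linked to low oxygen, and Cox7a1, the heart and muscle isoform of a complex IV subunit.

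The groups separated gene by gene. In 59 of the 79 tested members every Dox library was above every Vehicle library, and in 2 every Dox library was below, while 31.8% of all genes tested and 39.7% of those averaging at least 50 CPM had every Dox library above. The sign was positive for 72 of 79 members. Among the 62 members averaging at least 50 CPM, 44 rose with a median log2 fold change of 0.19, against a median of 0.02 for all genes at that level. Of the members, 8.86% had a fold change at or below 0 on the log2 scale, while 48.6% of the genes averaging at least 50 CPM did.

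**Figure D1:**
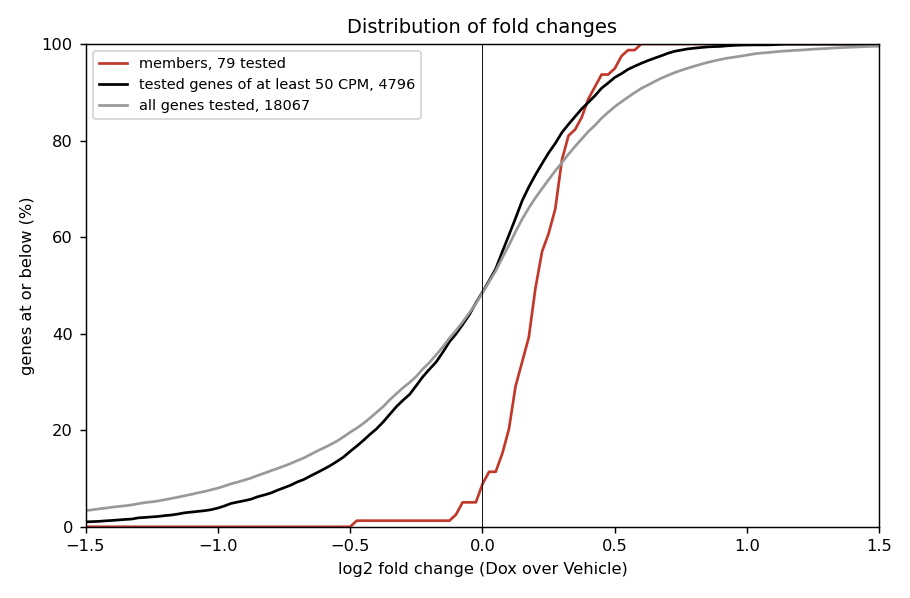
Cumulative share (%) of genes at or below each log2 fold change (Dox over Vehicle), for the 79 tested members, all 18067 genes tested and the 4796 genes averaging at least 50 CPM. The curve of the members lies right of the others around its median of 0.21 and is narrow, reaching neither tail.

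**Figure D2:**
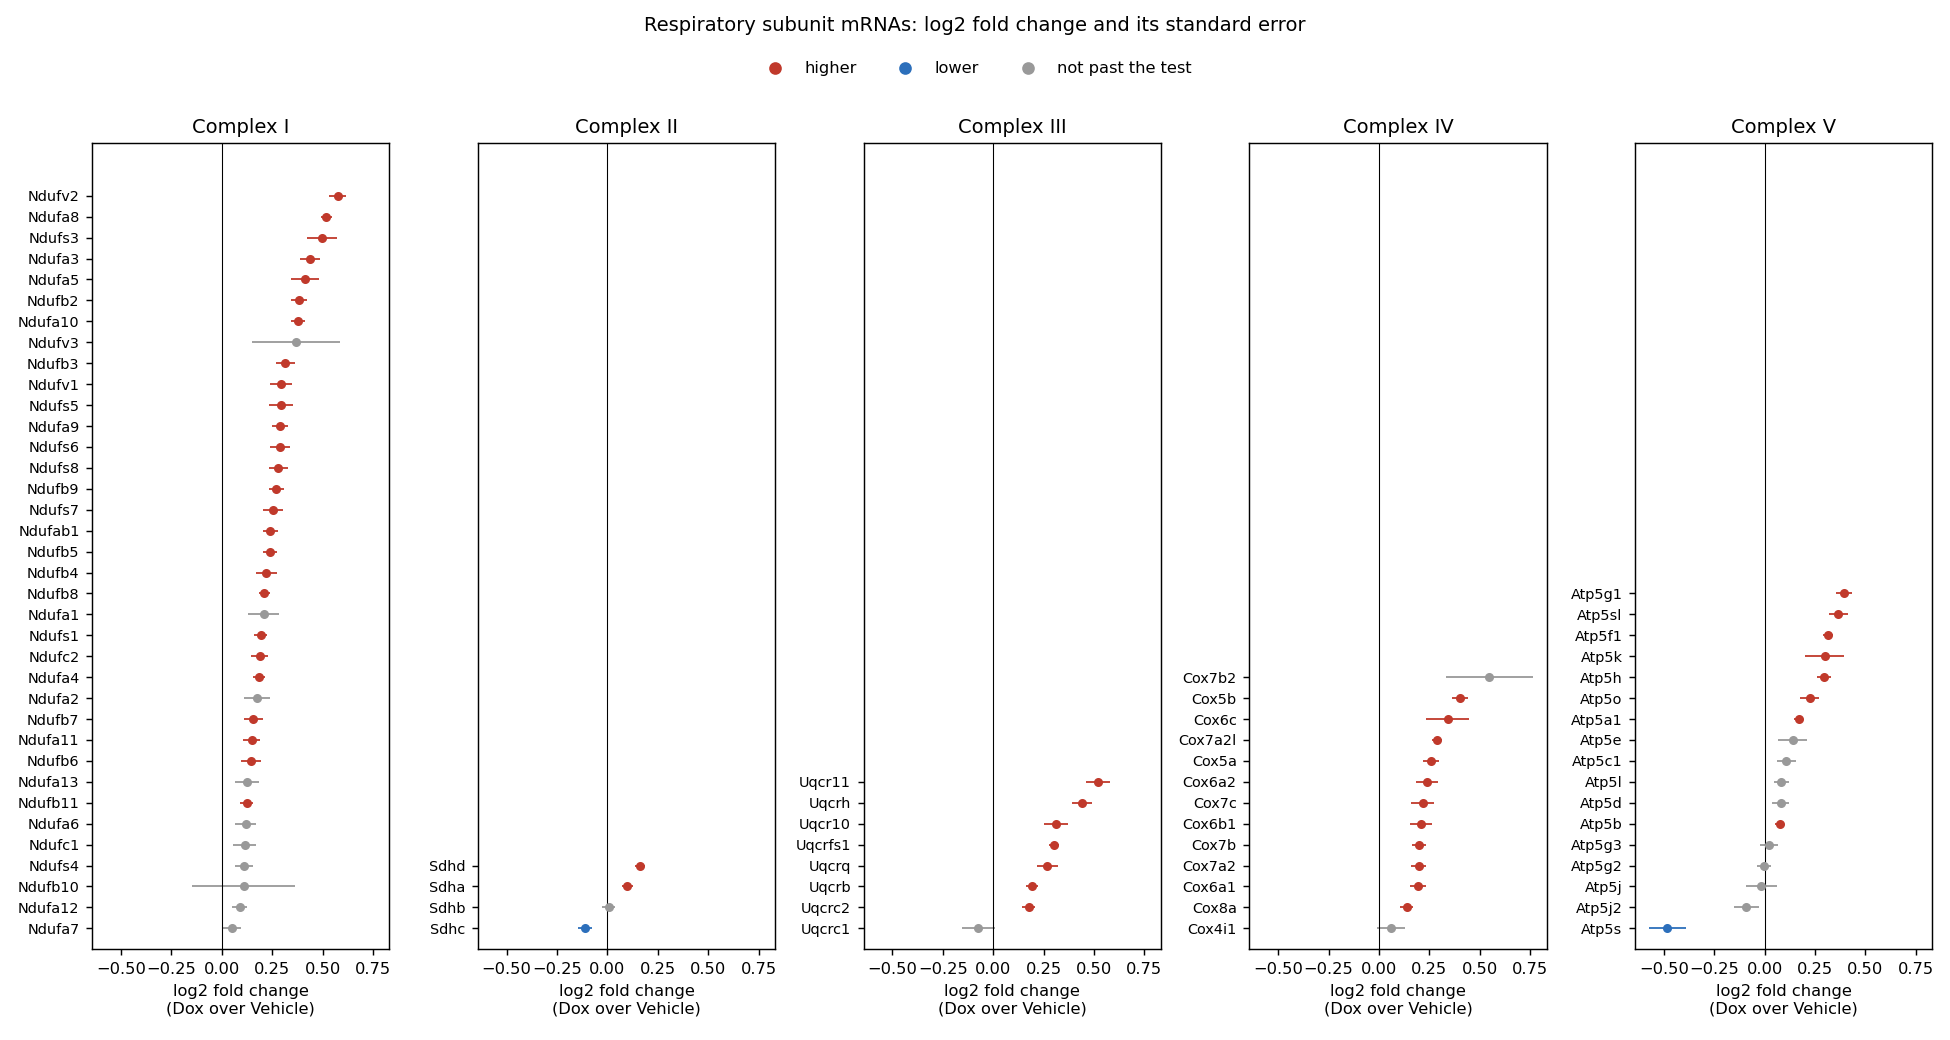
Log2 fold change (Dox over Vehicle, horizontal axis) of the tested members by complex, without 1 complex I gene, with bars of 1 standard error and colours for the result of the test at an adjusted p of 0.05. Most points of complexes I, III and IV lie right of 0, while 1 gene is called lower among those of complex II (Sdhc) and 1 among the Atp5 symbols (Atp5s, no subunit).

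Many respiratory genes have promoters without a TATA box and with sites for NRF1 and ETS-family factors such as GABP, and KLF13, like other Krüppel-like factors, binds GC-rich and CACCC sequences. To show the promoter letters of the genes that lead each complex, the member with the largest rise among those past the test in each complex and Atp5s, the one with the largest fall, are printed below, from 250 bases before to 50 bases after the annotated start (RefSeq, mouse build GRCm38.p6). Each is written 5′ to 3′ on the strand of its gene: Ndufv2 at chr17:66101510-66101809 on the minus strand, Sdhd at chr9:50603800-50604099 on the minus strand, Uqcr11 at chr10:80406772-80407071 on the minus strand, Cox5b at chr1:36691237-36691536 on the plus strand, Atp5g1 at chr11:96075582-96075881 on the minus strand, and Atp5s at chr12:69724695-69724994 on the plus strand. Capitals mark matches on either strand to any of GGGCGG (GC box), CACCC, the NRF1 consensus, CCGGAAG (ETS), CCAAT or AAGATGGCG (YY1).
Ndufv2: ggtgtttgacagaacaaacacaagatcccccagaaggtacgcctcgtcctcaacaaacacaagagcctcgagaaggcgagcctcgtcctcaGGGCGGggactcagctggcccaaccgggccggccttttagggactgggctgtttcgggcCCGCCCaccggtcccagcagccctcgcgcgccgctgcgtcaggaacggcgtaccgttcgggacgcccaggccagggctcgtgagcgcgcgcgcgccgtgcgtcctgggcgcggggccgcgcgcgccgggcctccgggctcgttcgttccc
Sdhd: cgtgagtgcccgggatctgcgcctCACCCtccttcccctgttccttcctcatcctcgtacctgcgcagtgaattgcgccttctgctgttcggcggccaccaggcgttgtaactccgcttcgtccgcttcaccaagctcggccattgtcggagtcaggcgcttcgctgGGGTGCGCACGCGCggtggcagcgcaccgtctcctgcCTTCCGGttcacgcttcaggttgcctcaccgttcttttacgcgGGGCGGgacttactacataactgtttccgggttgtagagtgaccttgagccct
Uqcr11: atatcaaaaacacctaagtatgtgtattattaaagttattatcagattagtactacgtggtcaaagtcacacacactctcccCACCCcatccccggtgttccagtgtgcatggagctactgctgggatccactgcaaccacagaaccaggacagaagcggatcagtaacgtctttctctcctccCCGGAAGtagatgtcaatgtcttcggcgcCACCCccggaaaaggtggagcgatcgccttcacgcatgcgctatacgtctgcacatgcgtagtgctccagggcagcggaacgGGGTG
Cox5b: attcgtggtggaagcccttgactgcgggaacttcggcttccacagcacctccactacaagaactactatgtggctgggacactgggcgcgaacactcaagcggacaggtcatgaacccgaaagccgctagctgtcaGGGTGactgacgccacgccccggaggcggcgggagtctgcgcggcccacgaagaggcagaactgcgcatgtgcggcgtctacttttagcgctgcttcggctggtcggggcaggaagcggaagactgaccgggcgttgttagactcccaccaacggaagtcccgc
Atp5g1: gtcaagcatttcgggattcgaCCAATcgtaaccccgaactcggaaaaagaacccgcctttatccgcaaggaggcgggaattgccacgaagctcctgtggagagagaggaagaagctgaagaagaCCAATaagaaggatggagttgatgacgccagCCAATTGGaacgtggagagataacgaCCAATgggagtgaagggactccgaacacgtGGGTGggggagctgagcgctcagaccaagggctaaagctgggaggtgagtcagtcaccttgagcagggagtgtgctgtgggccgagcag
Atp5s: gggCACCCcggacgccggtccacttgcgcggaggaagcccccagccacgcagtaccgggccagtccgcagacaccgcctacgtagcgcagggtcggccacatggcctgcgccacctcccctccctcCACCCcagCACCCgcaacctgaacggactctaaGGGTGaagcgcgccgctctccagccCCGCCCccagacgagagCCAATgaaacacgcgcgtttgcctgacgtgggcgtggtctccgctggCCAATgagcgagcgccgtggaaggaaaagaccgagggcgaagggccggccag

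The windows held different letters. Ndufv2 had 2 GC boxes and no other match. The Sdhd window had 1 GC box, 2 CACCC matches, 1 NRF1 match and 1 ETS match, and one of its CACCC matches overlaps the NRF1 match. Uqcr11 had 3 CACCC matches and 1 ETS match, Cox5b had 1 CACCC match, and Atp5g1 had 5 CCAAT matches and 1 CACCC match. Atp5s had 4 CACCC matches, 2 CCAAT matches and 1 GC box.

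A window was found for 67 of the tested members. The GC box was in 28 of them, 41.8%, compared with 73.7% of the 3558 windows of genes averaging at least 50 CPM and 38.2% of all 27025 windows. The NRF1 motif was in 25.4% of member windows, 14.4% of those of genes averaging at least 50 CPM and 5.19% of all windows, and the YY1 motif in 11.9%, 4.95% and 1.64%. The ETS motif was in 23.9% of member windows and 24.3% of the windows of genes averaging at least 50 CPM, against 9.93% of all windows. CACCC was in 52.2% of member windows, 63.5% of those of genes averaging at least 50 CPM and 59.8% of all, and CCAAT in 43.3%, 43.9% and 41.1%. The median GC content of the windows was 58.3% for members, 62.0% for genes averaging at least 50 CPM and 52.8% for all.

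Fold changes were set beside the presence of a GC box, with no test of the difference. The 28 members with one had a median log2 fold change of 0.21 and 17 of them (60.7%) rose, and the 39 without had a median of 0.22 and 29 (74.4%) rose. Among the genes averaging at least 50 CPM, the 2624 with a GC box had a median of −0.06, with 32.4% higher and 43.1% lower, and the 934 without had a median of 0.12, with 50% higher and 23.3% lower. Split by CACCC, the members' medians were 0.19 with a match and 0.22 without, and those of the abundant genes −0.05 and 0.08. For NRF1, ETS, CCAAT and YY1 the abundant genes had the higher median with a match, for NRF1 0.02 against −0.01 and for ETS 0.10 against −0.04. Among the members the median was lower with a match to each: 0.19 against 0.21 for NRF1 and 0.18 against 0.22 for ETS. It was 0.19 against 0.23 for CCAAT and 0.18 against 0.21 for YY1. These splits were not tested either. A match to these letters is a description of the window and not evidence of binding.

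**Figure D3:**
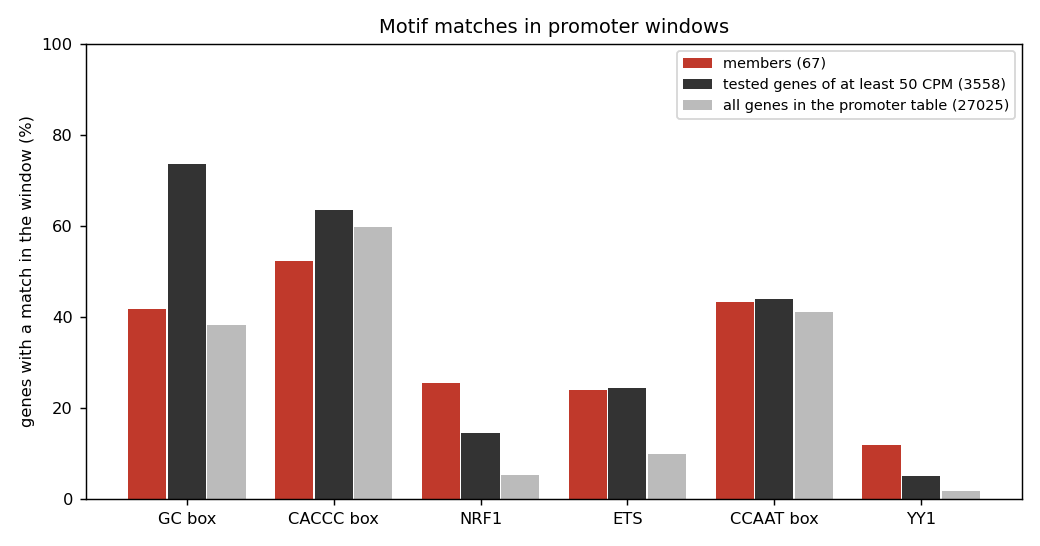
Share (%) of 300-base promoter windows holding each of 6 motifs, for the 67 tested members with a window, the 3558 genes averaging at least 50 CPM and all 27025 windows. The GC box is in 41.8% of member windows and 73.7% of those of genes averaging at least 50 CPM, and the NRF1 motif in 25.4% and 14.4%.

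Complex I, the entry point for electrons from NADH, had 37 tested genes, of which 26 rose, 0 fell and 11 did not pass the test, with a median log2 fold change of 0.22. No gene was lower by edgeR at an unadjusted p under 0.05, by DESeq2 or by limma-voom. In 30 of the 37, every Dox library was above every Vehicle library.

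The largest rise was that of Ndufv2, which encodes the 24-kDa iron-sulfur subunit of the NADH-binding module. Ndufv2 had 114, 112 and 115 CPM in the Dox libraries, against 77.1, 71.9 and 79.6 CPM in the Vehicle libraries, a 1.49-fold difference (a log2 fold change of 0.58 ± 0.042 (SE), adjusted p = 5.1e-05). The lowest Dox library was far above the highest Vehicle library. Ndufs3, a core subunit of the arm that leads electrons to ubiquinone, had 40.8, 34.2 and 38.4 CPM in the Dox libraries, against 27.9, 27.2 and 25.3 CPM in the Vehicle libraries (a log2 fold change of 0.50 ± 0.075 (SE), adjusted p = 0.0015), and the groups did not overlap. Its exons overlap those of Kbtbd4, and the counting is not stated to use strand. Ndufs1, the largest iron-sulfur core subunit and the complex I gene with the most counts, had 254, 245 and 242 CPM in the Dox libraries, against 214, 209.9 and 224 CPM in the Vehicle libraries (a log2 fold change of 0.19 ± 0.033 (SE), adjusted p = 0.0027), again without overlap, and it shares exons with the antisense gene Ino80dos.

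Among the accessory subunits, which surround the core and stabilise it, Ndufa8 had 119, 116 and 119 CPM in the Dox libraries, against 83.5, 80.5 and 83.2 CPM in the Vehicle libraries, a 1.43-fold difference (a log2 fold change of 0.52 ± 0.028 (SE), adjusted p = 1.5e-05). All Dox libraries lay above all Vehicle libraries. Ndufa3, a small membrane subunit, had 32.7, 32.2 and 33.3 CPM in the Dox libraries, against 25.4, 22.7 and 24.3 CPM in the Vehicle libraries (a log2 fold change of 0.44 ± 0.050 (SE), adjusted p = 0.00041). Ndufa5, in the matrix arm, had 47.6, 46.1 and 45.1 CPM in the Dox libraries, against 36.7, 31.1 and 36.5 CPM in the Vehicle libraries (a log2 fold change of 0.41 ± 0.071 (SE), adjusted p = 0.0028). Neither gene's groups overlapped. Ndufa4, which was named as a complex I gene and is now placed in complex IV, had 141, 136 and 132 CPM in the Dox libraries, against 120.4, 119 and 120.1 CPM in the Vehicle libraries (a log2 fold change of 0.19 ± 0.030 (SE), adjusted p = 0.0020), with no overlap. Ndufab1, the mitochondrial acyl carrier protein, rose by 0.24 on the log2 scale (SE 0.036, adjusted p = 0.0015).

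Some complex I genes varied widely between libraries. Ndufb10 had 75.5, 55.5 and 57.6 CPM in the Dox libraries, against 82.5, 45.8 and 46.6 CPM in the Vehicle libraries, and replicate 1 was the high library in both groups (a log2 fold change of 0.11 ± 0.26 (SE), adjusted p = 0.75). Ndufv3 had 27.6, 26.6 and 40.3 CPM in the Dox libraries, against 30.6, 20.2 and 22.4 CPM in the Vehicle libraries (a log2 fold change of 0.37 ± 0.22 (SE), adjusted p = 0.20), where 1 Dox library was well above the other Dox libraries and 1 Vehicle library was above 2 Dox libraries. Per kilobase of annotated transcript, the levels of the tested complex I genes ranged from 9.41 CPM per kb for Ndufb2, whose annotated transcript is unusually long, to 268 CPM per kb for Ndufb9 with Dox, and from 7.22 to 222 CPM per kb for the same genes with Vehicle.

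Complex II, succinate dehydrogenase, is also an enzyme of the citric acid cycle. Its 4 genes were divided: 2 rose, 1 fell and 1 did not pass the test, with a median log2 fold change of 0.05. Sdhd, a membrane anchor, had 202, 198 and 199 CPM in the Dox libraries, against 183, 178 and 176 CPM in the Vehicle libraries, with every Dox library above every Vehicle library (a log2 fold change of 0.16 ± 0.025 (SE), adjusted p = 0.0016). Sdha, the flavoprotein that oxidises succinate, had 188, 189 and 193 CPM in the Dox libraries, against 175, 183 and 175 CPM in the Vehicle libraries, which also did not overlap (a log2 fold change of 0.10 ± 0.027 (SE), adjusted p = 0.023). Its adjusted p was 0.051 without Dox replicate 3, 0.069 without Vehicle replicate 1 and 0.082 without Vehicle replicate 3.

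Sdhc, the other membrane anchor, had 95.6, 89.7 and 91.8 CPM in the Dox libraries, against 102, 97.4 and 99.6 CPM in the Vehicle libraries, and every Dox library was below every Vehicle library (a log2 fold change of −0.11 ± 0.034 (SE), adjusted p = 0.034). The fall was called in 7 of 18 alternatives. It was not called under upper-quartile scaling (log2 fold change −0.02, adjusted p = 0.74), with a transcript-length correction (−0.06, adjusted p = 0.25), without a filter on low counts (adjusted p = 0.05004), with a mean of at least 5 CPM (0.057) or without replicate 2 of both groups (0.067), and the adjusted p was 0.083 to 0.11 without Dox replicate 2, Dox replicate 3, Vehicle replicate 1 or Vehicle replicate 3 in turn. Sdhb, the iron-sulfur subunit, had 121, 115 and 121 CPM in the Dox libraries, against 121, 119 and 116 CPM in the Vehicle libraries (a log2 fold change of 0.01 ± 0.032 (SE), adjusted p = 0.88), with overlapping groups.

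Complex III, the cytochrome bc1 complex, had 8 tested genes, of which 7 rose and 0 fell, with a median log2 fold change of 0.28. No gene was lower by edgeR at an unadjusted p under 0.05, by DESeq2 or by limma-voom. All 5 small subunits rose, with a median of 0.31. Uqcr11, the smallest of them, had 75.02, 72.7 and 72.0 CPM in the Dox libraries, against 54.3, 46.8 and 52.0 CPM in the Vehicle libraries, a 1.43-fold difference (a log2 fold change of 0.52 ± 0.058 (SE), adjusted p = 0.00037). Uqcrh, the hinge protein near cytochrome c1, had 137, 133 and 139 CPM in the Dox libraries, against 104, 93.0 and 104 CPM in the Vehicle libraries (a log2 fold change of 0.44 ± 0.049 (SE), adjusted p = 0.00037). Uqcr10 had 84.1, 79.9 and 80.4 CPM in the Dox libraries, against 67.7, 59.8 and 69.5 CPM in the Vehicle libraries (a log2 fold change of 0.31 ± 0.061 (SE), adjusted p = 0.0049). In each of these 3 genes the Dox libraries stood above all Vehicle libraries.

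The Rieske iron-sulfur protein Uqcrfs1, which takes electrons from ubiquinol, had the tightest libraries of the complex, with 174, 173 and 178 CPM in the Dox libraries, against 141, 141 and 144 CPM in the Vehicle libraries (a log2 fold change of 0.30 ± 0.024 (SE), adjusted p = 7.2e-05). Uqcrq, a small subunit, had 156, 152 and 154 CPM in the Dox libraries, against 136, 118 and 129.6 CPM in the Vehicle libraries, without overlap (a log2 fold change of 0.27 ± 0.052 (SE), adjusted p = 0.0048). Uqcrb, another small subunit, rose by 0.19 on the log2 scale (SE 0.031, adjusted p = 0.0021). The 2 large core proteins differed from each other. Uqcrc2 had 188, 179 and 187 CPM in the Dox libraries, against 162, 159 and 169 CPM in the Vehicle libraries, without overlap (a log2 fold change of 0.18 ± 0.033 (SE), adjusted p = 0.0041), and Uqcrc1 had 131, 111 and 115 CPM in the Dox libraries, against 130.3, 113 and 132 CPM in the Vehicle libraries, with overlap (a log2 fold change of −0.08 ± 0.082 (SE), adjusted p = 0.48). Uqcrc2 and Uqcrb share exons with other annotated genes.

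Complex IV, cytochrome c oxidase, reduces oxygen. Of its 13 tested genes 11 rose and 0 fell, with a median log2 fold change of 0.22. No gene was lower by edgeR at an unadjusted p under 0.05, by DESeq2 or by limma-voom, and in 11 genes every Dox library was above every Vehicle library. Cox5b, a zinc-binding subunit on the matrix side, had 136, 136 and 138 CPM in the Dox libraries, against 106, 97.7 and 107 CPM in the Vehicle libraries (a log2 fold change of 0.40 ± 0.039 (SE), adjusted p = 0.0002). Cox5a, its partner on the matrix side, had 188, 180.0 and 187 CPM in the Dox libraries, against 160.2, 147 and 156 CPM in the Vehicle libraries (a log2 fold change of 0.26 ± 0.037 (SE), adjusted p = 0.0013), and shares exons with another annotated gene. The groups of both genes were apart.

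Cox6c, a small membrane subunit, had 159, 194 and 152 CPM in the Dox libraries, against 138, 120.4 and 141 CPM in the Vehicle libraries, where 1 Dox library was far above the other Dox libraries (a log2 fold change of 0.34 ± 0.11 (SE), adjusted p = 0.033). It shares exons with Vps13b. Without Dox replicate 2 its log2 fold change was 0.23 (adjusted p = 0.058), and without replicate 2 of both groups 0.16 (adjusted p = 0.021). Its adjusted p was 0.052 with a transcript-length correction, 0.063 without Vehicle replicate 1, 0.098 without Vehicle replicate 2 and 0.051 without Vehicle replicate 3. With the replicate number as a block it was 0.091. Cox6b1, which lies between the monomers of the complex IV dimer, had 145, 137 and 144 CPM in the Dox libraries, against 128, 113 and 128 CPM in the Vehicle libraries (a log2 fold change of 0.21 ± 0.055 (SE), adjusted p = 0.018), and its adjusted p was 0.067 without Dox replicate 1 and 0.065 without Dox replicate 3. Cox8a, the complex IV gene with the highest level per kilobase (594 CPM per kb with Dox and 540.3 CPM per kb with Vehicle), had 327, 331 and 323 CPM in the Dox libraries, against 305, 285 and 302 CPM in the Vehicle libraries (a log2 fold change of 0.14 ± 0.031 (SE), adjusted p = 0.0097), without overlap. Its log2 fold change was 0.33 with a transcript GC correction and 0.09 with a length correction, and it was called higher in both.

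Several complex IV subunits exist as a widely expressed isoform and one made mainly in heart and muscle. Cox6a1, the widely expressed form, had 311, 298 and 301 CPM in the Dox libraries, against 277, 252 and 267 CPM in the Vehicle libraries (a log2 fold change of 0.19 ± 0.039 (SE), adjusted p = 0.0057). Cox6a2, the muscle form, had 11.7, 11.02 and 10.8 CPM in the Dox libraries, against 9.46, 9.17 and 9.72 CPM in the Vehicle libraries (a log2 fold change of 0.24 ± 0.054 (SE), adjusted p = 0.0091), and shares exons with Itgad. Without replicate 2 of both groups its adjusted p was 0.057. With a transcript GC correction the log2 fold change was 0.39 for Cox6a1 and 0.28 for Cox6a2, which turns the order of the pair. Both rose without overlap, and per kilobase Cox6a1 was at 532 CPM per kb with Dox and 465 CPM per kb with Vehicle, while Cox6a2 was at 16.4 CPM per kb with Dox and 13.9 CPM per kb with Vehicle. The ratio of Cox6a1 to Cox6a2 in CPM was 26.6, 27.04 and 28.0 with Dox and 29.3, 27.5 and 27.5 with Vehicle, with overlapping groups (exact two-sided permutation test, n = 3 a group, p = 0.4, adjusted p = 0.5 over 5 ratios).

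Cox7a2, the widely expressed form of another small subunit, had 134, 130.3 and 138 CPM in the Dox libraries, against 118, 113 and 120.5 CPM in the Vehicle libraries (a log2 fold change of 0.20 ± 0.037 (SE), adjusted p = 0.0038). Cox7a2l, which joins complexes III and IV into supercomplexes, had 128, 125 and 129.8 CPM in the Dox libraries, against 105, 103 and 105 CPM in the Vehicle libraries (a log2 fold change of 0.29 ± 0.026 (SE), adjusted p = 0.00015). Both rose without overlap. The ratio of Cox7a2 to Cox7a2l was 1.04, 1.05 and 1.07 with Dox and 1.12, 1.09 and 1.15 with Vehicle, groups that did not overlap (exact two-sided permutation test, n = 3 a group, p = 0.1, the smallest this design allows, adjusted p = 0.17). Cox7a1 had 4, 0 and 7 counts with Dox and 0 in each Vehicle library, where 3 counts correspond to 0.0579 to 0.0795 CPM, so no fold is given.

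Cox4i1, the widely expressed form of the subunit at which ATP regulates the oxidase, had 225, 201 and 214 CPM in the Dox libraries, against 211, 185 and 218 CPM in the Vehicle libraries, with overlapping groups (a log2 fold change of 0.06 ± 0.072 (SE), adjusted p = 0.52). Its exons overlap those of Emc8, and with a correction for transcript GC content it was called higher (0.24, adjusted p = 0.026). Cox7b2, a low testis-type isoform, had 0.681, 0.831 and 0.989 CPM in the Dox libraries, against 0.451, 0.696 and 0.559 CPM in the Vehicle libraries (a log2 fold change of 0.55 ± 0.22 (SE), adjusted p = 0.074). It was the other complex IV gene that was tested and did not pass.

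Complex V, the ATP synthase, had 17 tested genes by symbol, of which 8 rose, 1 fell and 8 did not pass the test, with a median log2 fold change of 0.11. Without Atp5s, the gene that fell, and Atp5sl, neither of which is a subunit, 7 of 15 rose and 0 fell, and no gene was lower by edgeR at an unadjusted p under 0.05, by DESeq2 or by limma-voom. In 9 of the 17 genes every Dox library was above every Vehicle library, and in 1, Atp5s, every Dox library was below. For the 15 subunits these counts were 8 and 0. Of genes averaging at least 50 CPM, 39.7% had every Dox library above. By place in the enzyme, 3 of 4 peripheral stalk genes, 1 of 3 c-ring genes, 1 of 3 membrane subunits e, f and g, and 2 of 5 genes of the F1 head and central stalk rose, and the difference between these groups was not tested. Of all genes averaging at least 50 CPM, 35.9% rose.

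In the catalytic F1 head, Atp5b, the beta subunit that makes ATP, had 1926, 1899 and 1941 CPM in the Dox libraries, against 1859, 1803 and 1815 CPM in the Vehicle libraries (a log2 fold change of 0.07 ± 0.021 (SE), adjusted p = 0.022), a separation of the groups at a very small fold. Its adjusted p was 0.081 without Dox replicate 1, 0.073 without Dox replicate 3 and 0.074 without Vehicle replicate 3. Per kilobase Atp5b had the highest level of the complex V genes, 1003 CPM per kb with Dox and 953 CPM per kb with Vehicle. Atp5a1, the alpha subunit, had 845, 835 and 864 CPM in the Dox libraries, against 763, 749 and 753 CPM in the Vehicle libraries (a log2 fold change of 0.17 ± 0.021 (SE), adjusted p = 0.00065), without overlap.

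In the peripheral stalk, which holds the head still against the turning rotor, Atp5f1 (subunit b) had 311, 299.7 and 308 CPM in the Dox libraries, against 247, 243 and 249.0 CPM in the Vehicle libraries (a log2 fold change of 0.31 ± 0.023 (SE), adjusted p = 5.8e-05). Atp5h (subunit d) had 201, 190.4 and 199 CPM in the Dox libraries, against 165, 154 and 161 CPM in the Vehicle libraries (a log2 fold change of 0.30 ± 0.035 (SE), adjusted p = 0.00051). Neither overlapped, and Atp5o (OSCP) rose by 0.22 on the log2 scale (SE 0.049, adjusted p = 0.0080). Atp5j, the coupling factor 6 of the same stalk, had 75.4, 66.1 and 82.5 CPM in the Dox libraries, against 76.6, 75.3 and 74.7 CPM in the Vehicle libraries, with overlap (a log2 fold change of −0.02 ± 0.078 (SE), adjusted p = 0.88). Atp5f1 and Atp5j share exons with other annotated genes. Atp5k, membrane subunit e, had 80.1, 74.1 and 80.6 CPM in the Dox libraries, against 69.5, 54.2 and 67.3 CPM in the Vehicle libraries (a log2 fold change of 0.30 ± 0.096 (SE), adjusted p = 0.038), and its adjusted p was 0.054 to 0.11 when Dox replicate 1, 2 or 3 or Vehicle replicate 3 was left out. Without Vehicle replicate 2 its log2 fold change was 0.19 (adjusted p = 0.022).

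The c ring, the rotor through which protons flow, can be built from 3 genes, Atp5g1, Atp5g2 and Atp5g3, whose mature proteins are identical. Atp5g1 had 224, 217 and 225 CPM in the Dox libraries, against 173, 160.1 and 174 CPM in the Vehicle libraries (a log2 fold change of 0.39 ± 0.039 (SE), adjusted p = 0.00021). Atp5g2 had 121, 117 and 116 CPM in the Dox libraries, against 122, 113 and 119.8 CPM in the Vehicle libraries (a log2 fold change of −0.00195 ± 0.035 (SE), adjusted p = 0.97), and with a transcript GC correction its fold change turned to 0.13 (adjusted p = 0.0094). Atp5g3 had 296, 282 and 297 CPM in the Dox libraries, against 291, 269.9 and 300.4 CPM in the Vehicle libraries (a log2 fold change of 0.02 ± 0.045 (SE), adjusted p = 0.71). The Dox and Vehicle libraries of Atp5g1 were apart, while those of Atp5g2 and Atp5g3 overlapped.

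The balance of c-ring transcripts was compared within each library. The ratio of Atp5g1 to Atp5g2 was 1.86, 1.85 and 1.94 with Dox and 1.42, 1.42 and 1.45 with Vehicle, a difference of 0.40 on the log2 scale with no overlap (SD 0.036 with Dox and 0.021 with Vehicle, n = 3 a group, exact two-sided permutation test, p = 0.1, the smallest this design allows, adjusted p = 0.17 over 5 ratios). The ratio of Atp5g1 to Atp5g3 was 0.758, 0.768 and 0.760 with Dox and 0.594, 0.593 and 0.580 with Vehicle, a difference of 0.37 (exact p = 0.1). The ratio of Atp5g2 to Atp5g3 differed by −0.02 (exact p = 0.5).

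**Figure D4:**
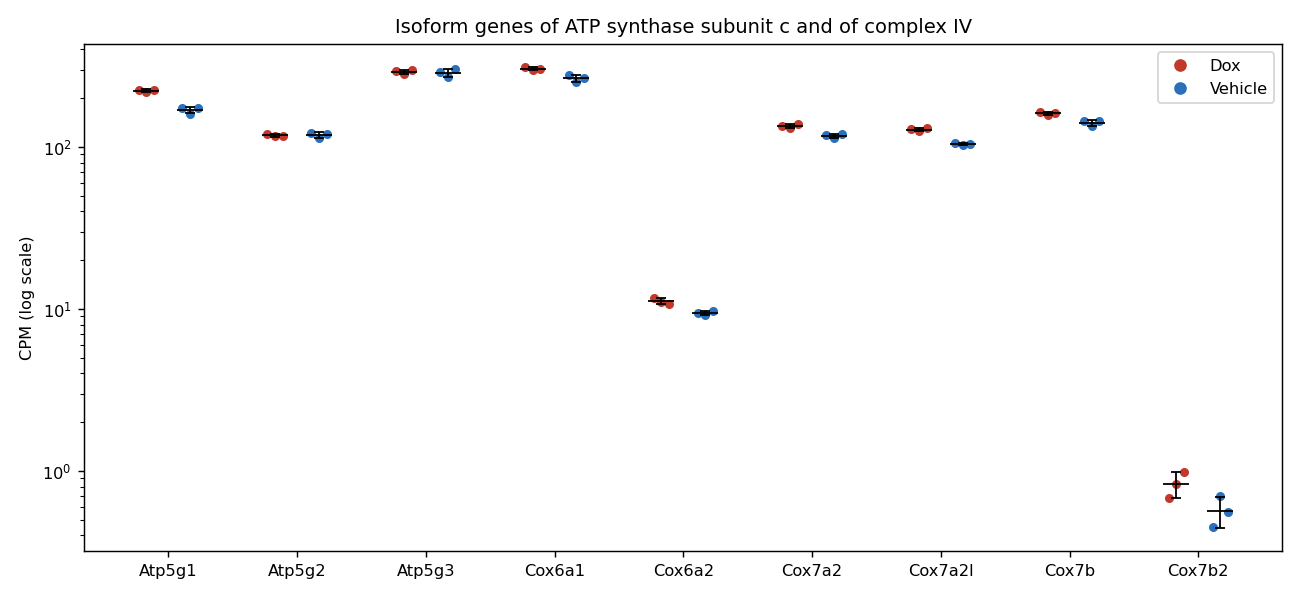
CPM of isoform genes in each library, with Dox left of Vehicle, 1 point per library and a line at the mean of 3. Atp5g1 is at 217 to 225 CPM with Dox and 160.1 to 174 CPM with Vehicle, while Atp5g2 and Atp5g3 overlap.

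Among the Atp5 symbols that are no subunits, Atp5s, also named Dmac2l and known as factor B, had 2.07, 1.97 and 1.98 CPM in the Dox libraries, against 2.89, 3.00 and 2.53 CPM in the Vehicle libraries, with every Dox library below every Vehicle library (a log2 fold change of −0.48 ± 0.091 (SE), adjusted p = 0.0042). Atp5sl, also named Dmac2, an assembly factor of complex I, had 17.7, 17.3 and 17.9 CPM in the Dox libraries, against 13.3, 14.3 and 13.6 CPM in the Vehicle libraries, with every Dox library above (a log2 fold change of 0.37 ± 0.047 (SE), adjusted p = 0.00075). Atp5s was thus the only member besides Sdhc that fell.

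Summed over all members, CPM was 11754, 11411 and 11707 with Dox and 10559, 9952 and 10376 with Vehicle, a ratio of 1.13. The summed level averaged 3087 ± 65.7 CPM with Dox and 2625 ± 116 CPM with Vehicle for complex I (SD, n = 3 a group), and 601 ± 8.09 CPM with Dox and 575 ± 7.43 CPM with Vehicle for complex II. It averaged 1015 ± 23.3 CPM with Dox and 856 ± 40.4 CPM with Vehicle for complex III, and 1993 ± 17.1 CPM with Dox and 1724 ± 86.1 CPM with Vehicle for complex IV. For complex V it averaged 4928 ± 82.1 CPM with Dox and 4516 ± 77.9 CPM with Vehicle. The ratios of Dox to Vehicle were 1.18, 1.05, 1.19, 1.16 and 1.09 for complexes I to V, and in each complex every Dox sum was above every Vehicle sum.

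The libraries of a group differed in a way that the members shared. Replicate 2 was the lowest Dox library for 56 of 79 members and the lowest Vehicle library for 63 of 79, against 37.9% and 30.9% of genes averaging at least 50 CPM. The median coefficient of variation of a member was 2.32% in Dox libraries and 4.72% in Vehicle libraries. Without replicate 2 of both groups, 50 members rose, with a median log2 fold change of 0.18.

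Of the 13 subunits made from mitochondrial DNA, the partners of these proteins in complexes I, III, IV and V, 1 rose, 3 fell and 9 did not pass the test, with a median log2 fold change of −0.02. Among genes averaging at least 50 CPM, 35.9% rose and 36.7% fell. All 13 subunits averaged at least 253 CPM. Their summed level was 35420, 35628 and 36306 CPM with Dox and 36232, 37746 and 36408 CPM with Vehicle, a ratio of 0.973 with overlapping groups. The summed nuclear-encoded level over the summed mitochondrially encoded level was 0.332, 0.320 and 0.322 with Dox and 0.291, 0.264 and 0.285 with Vehicle, with no overlap. The gene that rose was mt-Nd3 (0.36, adjusted p = 9.1e-05), and those that fell were mt-Nd5 (−0.22, adjusted p = 0.0064), mt-Nd6 (−0.19, adjusted p = 0.0034) and mt-Co1 (−0.16, adjusted p = 0.0030).

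**Figure D5:**
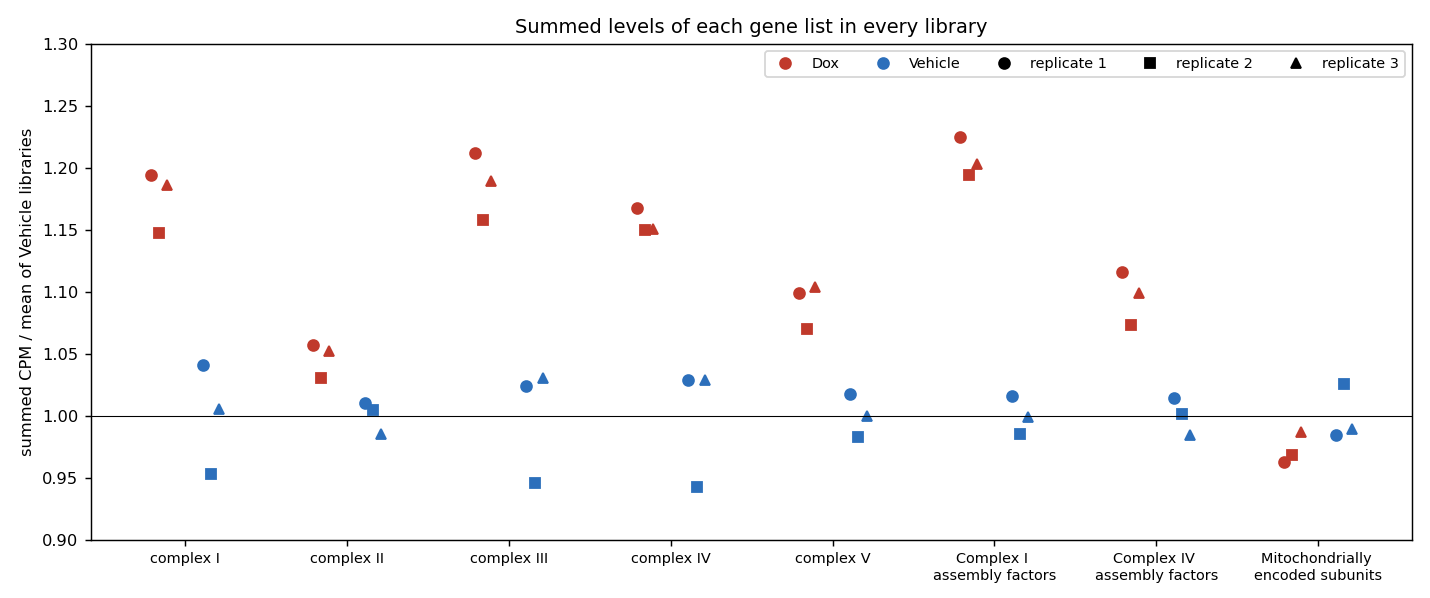
Summed CPM in each library divided by the mean of the 3 Vehicle libraries, with Dox left of Vehicle and a horizontal line at that mean. Shown are each complex's nuclear-encoded genes, the assembly factors of complexes I and IV, and the 13 mitochondrially encoded subunits. Complexes I to V are higher in all Dox libraries, and the mitochondrially encoded sum overlaps between groups.

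Genes that build the complexes were taken from lists. Of 51 assembly factors and related genes tested, 22 rose, 10 fell and 19 did not pass the test, with a median log2 fold change of 0.21, where 25.9% of all genes tested rose and 28.8% fell. Of the 15 factors of complex I, 8 rose and 4 fell. Nubpl, which delivers iron-sulfur clusters, rose by 0.66 on the log2 scale (adjusted p = 8.7e-05), and Ndufaf4 by 0.58 (adjusted p = 0.00066). Ndufaf2 had −0.35 (adjusted p = 0.00081). Ndufaf3 had −0.68 (adjusted p = 0.025) at a low level, with means of 0.609 CPM with Dox and 0.984 CPM with Vehicle. Of the 20 factors of complex IV, 10 rose and 2 fell, with Surf1 at 0.50 (adjusted p = 9.4e-05) and Cox20 at −0.35 (adjusted p = 0.0021).

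Of the 6 complex III factors, 1 rose and 2 fell, with Bcs1l, which inserts the Rieske protein, at −0.53 (adjusted p = 0.00041) and Ttc19 at −0.37 (adjusted p = 7.2e-05). Of the 4 complex II factors 2 rose and 1 fell, Sdhaf3 at −1.26 (adjusted p = 1.3e-05). Of the 6 complex V genes 1 rose, Usmg5 at 0.24 (adjusted p = 0.0052), and 1 fell, Atpaf1 at −0.26 (adjusted p = 0.0015). Cyc1 and Cycs, which encode cytochrome c1 and the mobile cytochrome c, both rose, by 0.24 (adjusted p = 0.00033) and 0.43 (adjusted p = 3.8e-05). The symbol rule for members did not take Cyc1 or Usmg5, so neither is in the counts by complex.

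Of 10 transcriptional regulators of respiratory genes, 2 rose, 3 fell and 5 did not pass the test. Among all genes tested, 25.9% rose and 28.8% fell. Esrra, a nuclear receptor that activates respiratory genes, fell by 1.24 on the log2 scale (SE 0.15, adjusted p = 0.0006), with 8.83, 11.3 and 12.2 CPM in the Dox libraries, against 23.5, 22.9 and 29.8 CPM in the Vehicle libraries. Yy1 fell by 0.36 and Gabpa, the DNA-binding subunit of GABP, by 0.25 (adjusted p = 5.6e-05 and 0.0047). Tfam, which packs and transcribes mitochondrial DNA, rose by 0.16 and Gabpb2 by 0.23 (adjusted p = 0.0092 and 0.017). Nrf1 had −0.09 (adjusted p = 0.25). Esrra, Gabpa and Gabpb2 share exons with other annotated genes, in the case of Gabpa with the member Atp5j.

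The members' transcripts are short, and other genes averaging at least 50 CPM had a median log2 fold change of 0.09 under 1 kb and −0.12 over 4 kb. Among genes averaging at least 50 CPM, 71.4% of the 35 members under 1 kb rose, against 30.3% of other genes of that length, and 63.2% of the 19 members of 1 to 2 kb, against 46.5% of other genes. In the 6 members of 2 to 4 kb it was 83.3%, against 39.1%.

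Many members lie against other genes or have copies. Exons of 26 members overlap those of another annotated gene, and Atp5o could not be matched to a single gene, and among the 52 tested members free of both, 35 rose and 2 fell with a median log2 fold change of 0.21. Of the 7 pseudogene names left out, 5 were tested and all 5 were higher with Dox. Atp5l2-ps had 17.4, 17.04 and 17.04 CPM in the Dox libraries, against 12.1, 11.6 and 13.0 CPM in the Vehicle libraries, although Atp5l itself, membrane subunit g, had 95.7, 93.5 and 92.0 CPM in the Dox libraries, against 88.4, 84.9 and 92.3 CPM in the Vehicle libraries (a log2 fold change of 0.08 ± 0.038 (SE), adjusted p = 0.11). How reads that fit several places were counted is not given in the sources used here, so values of members with copies are uncertain. In the authors' deposited table of fold changes, the median log2 fold change of the members was 0.20, 1 member had no adjusted p, and 54 were higher and 2 lower at an adjusted p under 0.05. The call column of the authors' deposited table marks 48 as higher and 0 as lower, with adjusted p up to 0.0076 among the members marked and from 0.011 among the others.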

How the data were processed

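RNA from the HT22 line was sequenced in 3 Dox and 3 Vehicle libraries, and the authors deposited raw counts per gene and a table of fold changes. Per the submitters' processing notes, reads were handled with DESeq2, StringTie (1.3.3), HISAT2 (2.1.0) and FastQC (0.11.3), named with no role or order, and build GRCm38. No source used here gives the tool that made the counts, their strand setting or the handling of multi-mapping reads. The authors' deposited log2 fold changes and adjusted p-values were used only where named. That table's mean signal (counts divided by size factors, per the file header) and its scores (standard error and test statistic) were not used.

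Counts were tested with edgeR 4.0.16 (filterByExpr, TMM scaling, quasi-likelihood test, Dox against Vehicle) in R 4.3.3, and p-values were adjusted by Benjamini-Hochberg over all 18067 genes tested of 29493. The common biological coefficient of variation was 12.0%. CPM are counts per 1000000 after TMM scaling. Limma 3.58.1 and DESeq2 1.42.0 were alternatives. Transcript lengths, exon overlaps and GC content come from GENCODE M21, and motifs were searched on both strands of RefSeq windows. The fit was tested on simulated data.

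Values in every library are given for the 5 largest changes past the test in each complex, every member that fell, the most abundant member and fixed isoform sets. Other genes named, with those of the other lists, were chosen after their values were seen and not by p alone. The members and lists were chosen with earlier results of these data known. The floor for genes at 0 covers counting error only. The main test did not pair libraries by replicate number, and same-numbered libraries correlated at 0.069, 0.052 and −0.094 over 14635 genes. These correlations do not settle whether the numbers are matched. Replicate 2 was the lowest library for most tested members in both groups. The values of 1 member are not reported here.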

Additional observations from a re-analysis of the deposited data

How the results depend on the processing

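The 54 members called higher were 53 with DESeq2 size factors, 68 under upper-quartile scaling, 54 with DESeq2 and with limma-voom, 53 without a filter on low counts, 59 with a mean of at least 5 CPM, 52 with a transcript-length correction, 63 with a GC correction, 42 at an adjusted p under 0.01 and 45 to 55 when 1 library was left out. Of the 54, 41 were called in every refit other than the test against 1.2-fold, and 0 changed sign. Upper-quartile scaling moved the median of all genes to 0.11 and their calls to 6246 higher and 4457 lower, from 4687 and 5203, and the members' median to 0.30. Tested against 1.2-fold, 13 of 79 members were higher and 1 lower. Those higher were 7 of complex I, 0 of complex II (0 at an unadjusted p under 0.05 in that edgeR test, 2 by DESeq2 and 2 by limma-voom against no change), 2 of complex III, 1 of complex IV and 3 of complex V. Among all 18067 genes, the test against 1.2-fold called 2417 higher and 3615 lower. Without members that share exons, 35 were higher, 15 in complex I and 5 in complex V. The 2 members lower became 1 under upper-quartile scaling, without the filter, at an adjusted p under 0.01, with the length correction and, chosen after seeing the data, without replicate 2 of both groups; they were 1 to 2 when 1 library was left out, and 0 with a mean of at least 5 CPM, where Atp5s was not tested (edgeR, 1 at an unadjusted p under 0.05, 2 by DESeq2 and by limma-voom at the main filter). The 2 complex II genes higher became 1 without the filter and at an adjusted p under 0.01, and 1 to 2 when 1 library was left out. Atp5g2 turned to 0.13 (−0.00195 without correction) with the GC correction, and the cause was not tested. With the replicate block 55 members were higher, 28 in complex I, and Cox6c was the only named call lost. Leaving out members that share exons was also chosen after seeing the data. At these depths Cox7a1 had too few counts to test.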
